A study of Mus musculus with 18 samples.

Results

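The ribosomal protein mRNAs of the cytosolic ribosome were followed gene by gene through a separation of brain RNA by poly(A) tail length. Members were the genes whose symbol has the form Rpl or Rps followed by a number (with a trailing a, x, l or l1 where the symbol has one), together with Rplp0, Rplp1, Rplp2 and Rpsa. Only probe sets that the array annotation assigns to a single gene were taken. This gave 69 genes read by 132 probe sets, 24 of the small subunit and 45 of the large subunit, among 17097 genes and 28898 single-gene probe sets in the series. After a filter on low signal, 67 of the 69 genes and 118 of their probe sets were tested, among 11974 genes and 27022 probe sets. The 2 genes below the filter were Rpl3l and Rpl39l, paralogues of Rpl3 and Rpl39, whose probe sets averaged 5.60 and 5.46 on the log2 scale. Rpl5 and Rps27a, which the symbol rule would take, had no single-gene probe set here.

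Cortex and striatum were dissected together from 3 control mice (CTRL) and 3 mice carrying the TgCPEB4∆4 transgene, all aged 6 weeks and untreated as far as the labels say. The transgene is named for CPEB4, an RNA-binding protein that recognises cytoplasmic polyadenylation elements in mRNA and alters the length of the poly(A) tail, here in a form without a neuronal microexon. The promoter that drives it, the number of founder lines and the strain were not given in the sources used here. Each mouse gave 3 arrays: total RNA (INPUT), the RNA released from a poly(U) column by 25% formamide, enriched for short tails (WASH), and the RNA released by 90% formamide, enriched for long tails (ELUTED). Values are log2 signals per probe set, and the tail ratio of a gene is its ELUTED minus its WASH value within a mouse, so that a negative ratio means relatively more signal in the short-tail fraction. Because equal amounts of RNA were amplified and labelled from each fraction, a value is the share of a transcript within its fraction, and levels of different genes were not compared.

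Ribosomal proteins pair with ribosomal RNA to build the small subunit, which reads the mRNA, and the large subunit, which joins amino acids. Their mRNAs are among the most abundant of the cell and belong to the TOP class, which begins with a C followed by an uninterrupted stretch of pyrimidines and is held back or released for translation together through mTORC1 and the binding protein LARP1. These mRNAs are stable, and abundant, stable mRNAs tend to carry short poly(A) tails.

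The start of the gene is where a TOP stretch would lie, so the bases around every RefSeq start of each gene were searched for it. The search took 25 bases on either side of the start and looked for a C followed by 7 or more C or T, a run of at least 8 bases. Of 53 members with an entry in the RefSeq promoter table (GRCm38.p6), 27 held such a run on the gene's strand (50.9%) and 5 on the other strand (9.43%). Over all 27025 genes of that table the shares were 17.7% and 19.6%. Among 65 genes for the proteins of the mitochondrial ribosome, 20.0% held a run on the gene's strand. Runs are shown for Rpl39, Rpl7a, Rps9 and Rps15a, which have the most and the least negative control tail ratio of each subunit by value, and for some of the other members described singly in the results. Capitals mark the run, and up to 5 bases of the window are given on each side, 5′ to 3′ on the gene's strand.
Rps6 (chr4:86857354-86857373, minus strand): tcgggCCTCTTTTTCgtgac
Rps9 (chr7:3704031-3704048, plus strand): cttgtCTCTCTTTgtctc
Rps15a (chr7:118116148-118116167, minus strand): gcccaCTCTCTTTCTgccat
Rps27l (chr9:66946061-66946077, plus strand): ccaCTCCTCTCCactcc
Rpl7a (chr2:26910790-26910818, plus strand): caattCCCTCTTCTTTCTTTCTCCagcag
Rpl11 (chr4:136053369-136053384, minus strand): gaagtCTCCCTCTCTC
Rpl22l1 (chr3:28805506-28805523, plus strand): ccgttCTCTTCCCacggc
Rpl28 (chr7:4792958-4792977, plus strand): cgtgtCTCTCTTTCCgtctc
Rpl39 (chrX:37085230-37085247, minus strand): tccatCCCCCCCTaagct
Rplp2 (chr7:141447642-141447660, plus strand): agcgtCTTCCTTTCgccgc
The run spanned an annotated start in Rps6, Rps9, Rpl7a, Rpl28 and Rplp2. It lay upstream of one in Rps15a, Rps27l and Rpl39 and downstream of one in Rpl11 and Rpl22l1. In Rps9, Rps27l and Rpl7a that start lies inside the gene, downstream of the gene's first annotated base. A match describes these letters only, and an annotated start need not be the base at which transcription begins in this tissue.

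Each labelled tissue was present in the RNA: of 7 cortical and 8 striatal markers tested, 5 and 7 exceeded the nonspecific ceiling, the brightest nonspecific control probe set of an array, on all 6 INPUT arrays. Markers of other cell types differed in value between genotypes. In INPUT, 8 of 10 microglial, 10 of 11 astrocyte and 8 of 8 meningeal fibroblast markers had a higher mean in transgenic mice, and their log2 summed signals ran from 12.01 to 12.17, from 14.26 to 14.31 and from 11.19 to 11.28 in control mice and from 12.16 to 13.48, from 14.30 to 14.91 and from 11.46 to 12.21 in transgenic mice. Inflammation genes spanned 9.89 to 10.06 and 9.96 to 13.30, with transgenic mouse 1 the highest in all 4 lists. On all 6 INPUT arrays, 2 of 8 inflammation, 4 of 8 meningeal fibroblast, 8 of 10 microglial and 9 of 11 astrocyte markers exceeded the nonspecific ceiling. Of 11 endothelial and mural markers 10 had a higher INPUT mean in transgenic mice, with sums from 11.86 to 12.07 against 11.66 to 11.87. The 2 choroid plexus markers tested summed to 9.53 to 10.76 in control and 9.13 to 12.11 in transgenic mice. Striatal markers ran lower in transgenic mice, from 12.83 to 12.98 against 13.13 to 13.17. Oligodendrocyte markers in INPUT also ran lower, from 13.81 to 13.93 against 13.94 to 14.08, with 1 of 10 higher by mean. In ELUTED 7 of the 10 were higher in transgenic mice. Of 12 neuron markers 2 were higher in INPUT, and their summed signals overlapped between genotypes. The part of these differences in any genotype difference reported here was not tested.

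In total RNA, ribosomal protein mRNAs of the transgenic mice read slightly above those of the control mice, and no single member passed the test. The median over members was 10.78, 10.75 and 10.72 in control mice 1, 2 and 3 and 11.19, 10.89 and 10.95 in transgenic mice 1, 2 and 3, so that the genotypes did not overlap in this median and transgenic mouse 1 was the highest. The median log2 difference, transgenic minus control, was 0.21 over members and 0.03 over all genes tested, and 66 of 67 members were above 0. For 47 members the 3 transgenic mice were all above the 3 control mice, against 13.2% of all genes tested, and for 0 members all below, against 6.63%. With limma and Benjamini-Hochberg adjustment over all probe sets, 0 members passed (0.0% of all genes passed in either direction). The range of the median was 0.12 to 0.25 when single mice were left out, with the lowest value without transgenic mouse 1. In bulk tissue, a difference in the number of cells of a type and a difference in RNA per cell cannot be told apart.

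The members with the largest INPUT differences were Rps27l, a paralogue of Rps27, Rpl22, which also binds RNA outside the ribosome, Rps9, which lies on the solvent side of the small subunit, and Rplp0, the base of the stalk that recruits translation factors. Rps27l read 7.13, 7.10 and 7.02 in control mice and 8.22, 7.57 and 7.39 in transgenic mice, a difference of 0.65 ± 0.20 (SE, n = 3 a genotype; limma adjusted p = 0.42). It exceeded the nonspecific ceiling on 1 of 3 control INPUT arrays, so that its difference is not an exact value. Rpl22 differed by 0.52 ± 0.14, Rps9 by 0.45 ± 0.14 and Rplp0 by 0.42 ± 0.15 (limma adjusted p = 0.42, 0.42 and 0.43). In all 4 the genotypes did not overlap, and transgenic mouse 1 was the highest. The smallest differences were those of Rpl41, the shortest ribosomal protein (-0.10), Rpl37 (0.02), Rpl37a (0.06) and Rpl28 (0.09), each with overlapping genotypes. The sign for Rpl41 turned when all its probe sets were averaged (0.03), and that for Rpl37 turned without transgenic mouse 3 (-0.02) and without control mouse 3 (-0.01).

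**Figure D1:**
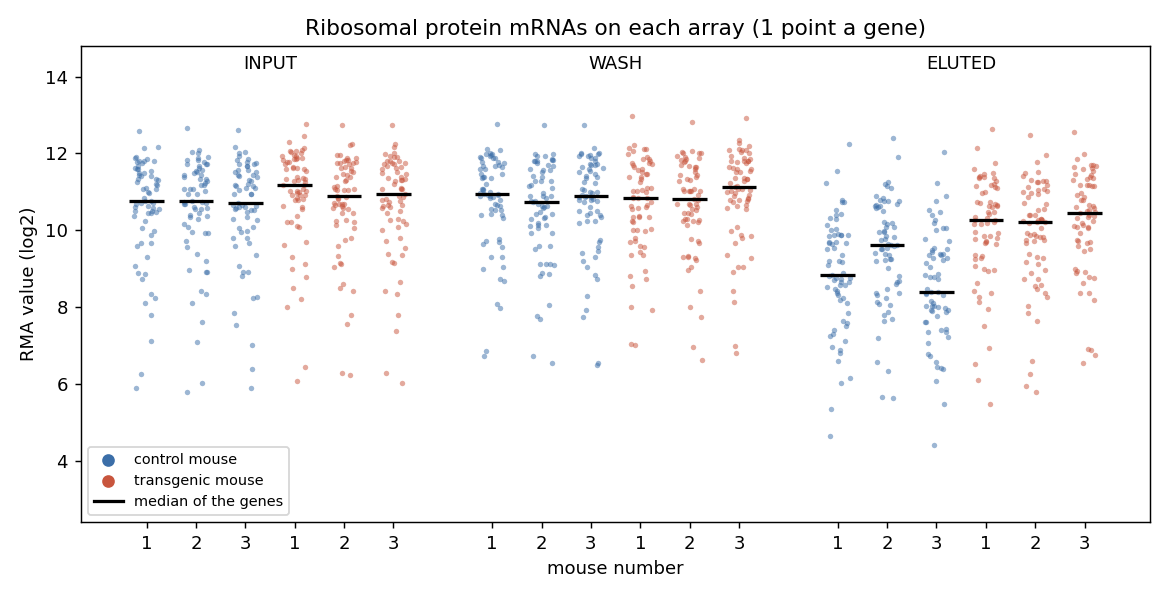
RMA log2 values (y axis) of the 67 ribosomal protein genes tested, 1 point a gene, on each of the 18 arrays (x axis, mouse number within genotype), with control mice in blue, transgenic mice in red and a black bar for the median of the genes. The median lay between 10.72 and 11.19 on INPUT and WASH arrays and fell to 8.39 to 9.62 on control and 10.21 to 10.45 on transgenic ELUTED arrays.

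The short-tail fraction held ribosomal protein mRNAs at about the share they had in total RNA. The WASH medians over members were 10.94, 10.75 and 10.90 in control mice and 10.84, 10.80 and 11.13 in transgenic mice, and the genotypes overlapped. In control mice the median WASH minus INPUT difference was 0.11, against 0.13 over all genes. By limma 19 of 67 members were higher in WASH and 0 were lower, where 36.3% of all genes were higher and 12.5% lower. Among the members that were higher were Rpl22 (0.76 ± 0.08, SE), Rps27l (0.71 ± 0.11), the Rpl7 paralogue Rpl7l1 (0.62 ± 0.09), the stalk protein Rplp2 (0.49 ± 0.10) and Rpsa, the laminin receptor protein of the small subunit (0.48 ± 0.08), with limma adjusted p of 0.0023 or less. Rps27l exceeded the nonspecific ceiling on 1 of 3 control INPUT arrays, so that its difference is not an exact value. A second quantile normalization gave 14 higher and 6 lower members, and each genotype fitted alone 21 and 4. In transgenic mice 11 members were higher and 6 lower (all genes: 35.5% and 11.9%), with a median of -0.04 over members whose sign turned without transgenic mouse 1 (0.10). The balance of the calls turned with a second quantile normalization (9 higher and 11 lower) and moved to 18 and 3 with median centring. The 6 lower ones in the fit with all mice were Rpl17 (-0.51 ± 0.12), Rpl23a (-0.43 ± 0.12), Rpl13a (-0.30 ± 0.09), Rps7 (-0.24 ± 0.08), Rpl29 (-0.46 ± 0.16) and Rpl7a (-0.31 ± 0.11). Their limma adjusted p ran from 0.0047 for Rpl17 to 0.042 for Rpl7a. Without transgenic mouse 3, 27 members passed, 19 of them lower. Between genotypes 0 members passed in WASH by limma (0.0% of all genes). The transgenic mice were all above the control mice for 15 members and all below for 0 (all genes: 16.1% and 9.2%).

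The long-tail fraction held less ribosomal protein mRNA than total RNA did, by value more so in control than in transgenic mice. The ELUTED medians over members were 8.84, 9.62 and 8.39 in control mice and 10.28, 10.21 and 10.45 in transgenic mice. All 3 control mice were below all 3 transgenic mice, and control mouse 2 was the closest to them. In control mice 61 of 67 members were lower in ELUTED than in INPUT by limma and 0 were higher, where 15.6% of all genes were lower and 3.88% higher. The median ELUTED minus INPUT difference was -1.58 over members and -0.03 over all genes. It ran from -2.90 for Rpl12, a stalk-base protein, to 0.04 for Rps15a. The 6 members that did not pass were Rpl14, Rpl22, Rps2, Rps15a, Rps19 and Rps27l, at -0.36, -0.42, -0.38, 0.04, -0.61 and -0.49. Rps15a and Rpl14 exceeded the nonspecific ceiling on 0 of 3 INPUT arrays of either genotype and Rps27l on 1 of 3 control INPUT arrays, so their differences against INPUT are not exact values.

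In transgenic mice the same difference had a median of -0.70 over members and -0.01 over all genes. By limma with 1 spread for both genotypes 1 member was lower, Rpl24 (-1.33 ± 0.21, adjusted p = 0.048), and 0 were higher (all genes: 0.225% and 0.0418%). In this difference most members varied less between the transgenic than between the control mice. A fit of each genotype alone was added after the data were seen. It gave 53 lower members in transgenic mice and 43 in control mice, where 8.64% and 3.5% of all genes were lower. Over all 6 mice, 62 of 67 members were below 0 in every mouse (92.5%, against 17.9% of all genes).

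**Figure D2:**
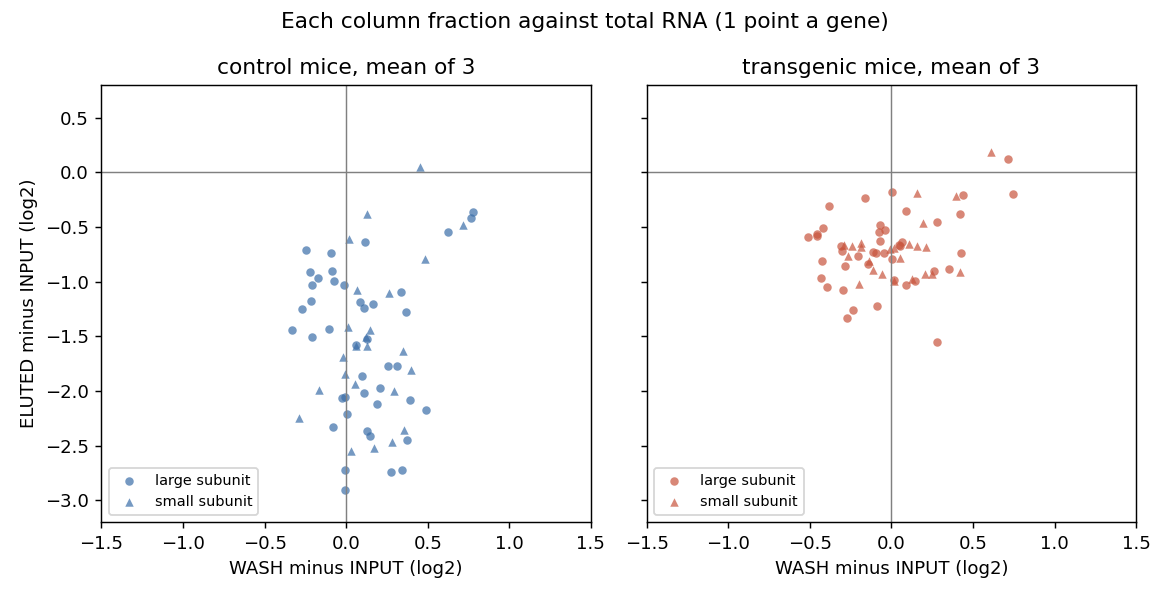
Mean WASH minus INPUT (x axis, log2) against mean ELUTED minus INPUT (y axis, log2) for 67 members in control (left) and transgenic mice (right), 1 point a gene and a mean of 3 mice, circles for the large and triangles for the small subunit. The points straddle 0 on the x axis in both genotypes and lie below 0 on the y axis for 66 members in control mice, and 65 in transgenic mice.

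The tail ratio, taken within each mouse, had a negative control mean in 67 of 67 tested members and was below 0 in all 3 control mice in 66, the exception being Rps19. Its median was by value smaller in size in transgenic mice. The median over members was -1.77, -1.10 and -2.17 in control mice 1, 2 and 3 and -0.62, -0.76 and -0.65 in transgenic mice. In control mice 65 of 67 members were lower in the long-tail fraction by limma and 0 were higher, where 39.9% of all genes were lower and 20.5% higher. The median of the control means was -1.65 over members, a 3.13-fold lower signal in ELUTED, and -0.18 over all genes. In transgenic mice 35 of 67 members were lower and 0 higher (all genes: 20.5% and 6.5%), with a median of -0.69 over members, a 1.61-fold lower signal, and -0.17 over all genes.

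The transgenic count varied with the mice kept and with the way the spread was estimated. It was 0 without transgenic mouse 1 or 2 and 11 without transgenic mouse 3, omissions that also leave fewer transgenic mice to test. It was 50 without control mouse 2 and 51, the highest of these counts, without control mouse 1. Over all omissions of 1 mouse the median stayed between -0.69 and -0.66. With each genotype fitted alone 60 members passed in transgenic and 63 in control mice, where 36.7% and 30.8% of all genes were lower. In 61 members the ratio was below 0 in 6 of 6 mice (91.0%, against 41.4% of all genes). The other members were Rpl17, Rpl21, Rpl28, Rpl29, Rpl35 and Rps19, which had at least 1 mouse above 0.

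**Figure D3:**
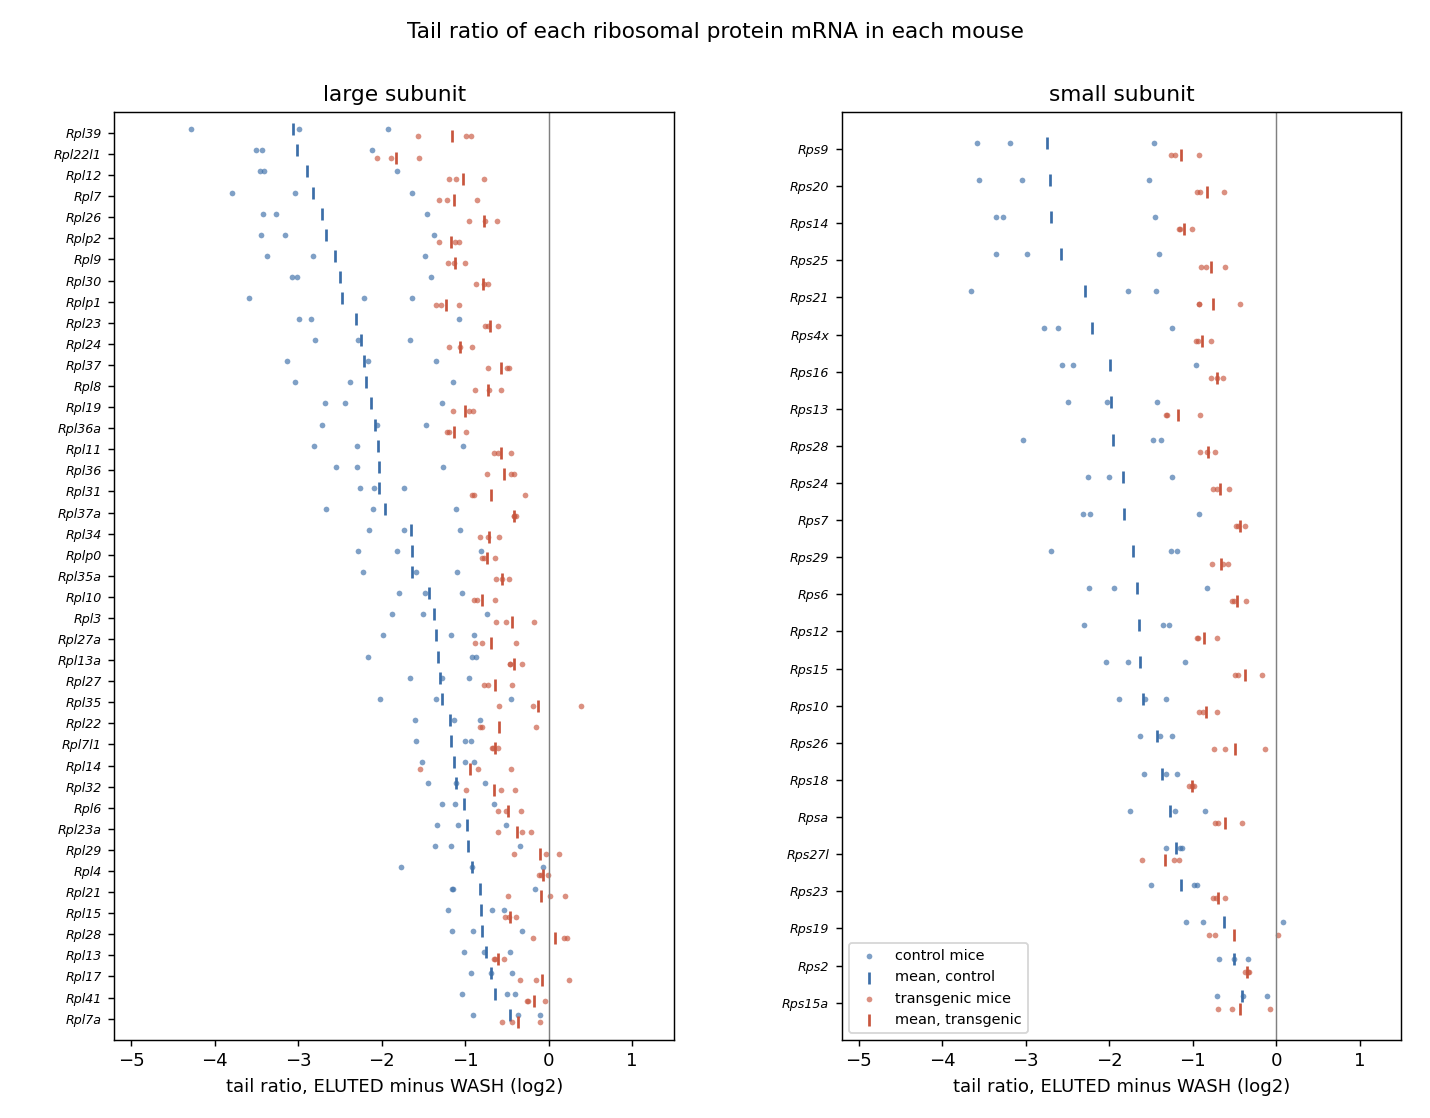
Tail ratio (ELUTED minus WASH, log2, x axis) of each tested gene (y axis) of the large subunit (left) and the small subunit (right), with 1 point a mouse and a bar for the mean of 3 mice, control in blue and transgenic in red. Genes are ordered by their control mean, which ran from -3.07 for Rpl39 to -0.46 for Rpl7a in the large and from -2.74 for Rps9 to -0.40 for Rps15a in the small subunit.

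The subunits gave similar counts and medians. In control mice 43 of 43 large subunit members and 22 of 24 small subunit members were lower, with medians of -1.64 and -1.69. In transgenic mice the counts were 23 of 43 and 12 of 24, with medians of -0.65 and -0.73. The difference between subunits was not tested.

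Among large subunit members, Rpl39, Rpl22l1, Rpl12 and Rpl7 had the most negative control ratios by value. Rpl39, Rpl12 and Rpl7 exceeded the nonspecific ceiling on 2 of 3 control ELUTED arrays and Rpl22l1 on 1 of 3, so that no order among them can be read. Rpl39, a small protein in the wall of the exit tunnel, read 10.56, 10.30 and 10.35 in WASH and 7.58, 8.38 and 6.07 in ELUTED in control mice. Its tail ratio was -2.98, -1.93 and -4.28 in control mice, and -0.99, -1.56 and -0.93 in transgenic mice, so that the genotypes did not overlap and control mouse 3 was the lowest. The control mean was -3.07 ± 1.18 (SD, n = 3; limma adjusted p = 0.00062) and the transgenic mean -1.16 ± 0.35 (limma adjusted p = 0.043). A second, dimmer probe set of Rpl39 gave -0.09 in control mice (limma adjusted p = 0.52), and the genotype difference read from it was -0.20, of the opposite sign.

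Rpl22l1, the paralogue of Rpl22, had tail ratios of -3.44, -2.12 and -3.50 in control mice, and -1.89, -2.06 and -1.55 in transgenic mice, the most negative transgenic mean of all members (-1.83 ± 0.26, limma adjusted p = 0.0046). It exceeded the nonspecific ceiling on 2 of 3 transgenic ELUTED arrays. Rpl22 itself had -1.60, -0.82 and -1.14 in control mice, and -0.80, -0.82 and -0.15 in transgenic mice, with overlapping genotypes. Rpl7 had -3.79, -1.63 and -3.04 in control mice, and -1.22, -1.32 and -0.86 in transgenic mice, while its paralogue Rpl7l1 had -1.59, -0.998 and -0.925 and -0.67, -0.61 and -0.66. The control mean was thus more negative for the paralogue in the Rpl22 pair (-3.02 against -1.18) and for the founding member in the Rpl7 pair (-2.82 against -1.17), a difference that was not tested. Between tested probe sets of 1 gene the control mean ranged by 1.35 in Rpl7, 1.06 in Rpl7l1 and 0.74 in Rpl22. The size of each contrast therefore depends on the probe set taken.

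The 4 members of the P stalk, which recruits and activates elongation factors, were lower in both genotypes. Rplp0 had tail ratios of -2.28, -0.82 and -1.82 in control mice, and -0.78, -0.80 and -0.64 in transgenic mice (means -1.64 ± 0.75 and -0.74 ± 0.09, SD; limma adjusted p = 0.048 in transgenic mice). The control means of Rplp1, Rplp2 and Rpl12 were -2.48, -2.66 and -2.89, and their transgenic means -1.23, -1.17 and -1.03. In each of the 4 the control mice were all below the transgenic mice.

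Rpl11, which with 5S RNA can leave the ribosome and bind the p53 regulator Mdm2, had -2.81, -1.03 and -2.30 in control mice, and -0.45, -0.61 and -0.65 in transgenic mice. It was lower in control mice (-2.05 ± 0.92, SD; limma adjusted p = 0.00094) and did not pass in transgenic mice (limma adjusted p = 0.15). A dimmer Rpl11 probe set read -0.07 in control mice (limma adjusted p = 0.62). Of 8 proteins around the exit tunnel (Rpl4, Rpl17, Rpl19, Rpl23a, Rpl26, Rpl31, Rpl35 and Rpl39) 8 were lower in control mice, and 3 in transgenic mice (all genes: 39.9% and 20.5%), with medians of -1.65 and -0.54. Over all members the transgenic share was 52.2%.

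At the other end of the large subunit, Rpl7a had tail ratios of -0.10, -0.37 and -0.91 in control mice, and -0.10, -0.44 and -0.56 in transgenic mice, and the genotypes overlapped. Its control mean of -0.46 ± 0.41 (SD) passed narrowly (limma adjusted p = 0.046) and did not pass without any 1 of the transgenic mice (limma adjusted p = 0.063 to 0.076) or with each genotype fitted alone (0.11). Rpl41 had -0.40, -0.49 and -1.04 in control mice, and -0.26, -0.04 and -0.24 in transgenic mice, and only the former passed (limma adjusted p = 0.0079 and 0.38). Rpl28 was lower in control mice (-0.80 ± 0.43, SD; limma adjusted p = 0.0062) and was the 1 member with a transgenic mean above 0 (0.07 ± 0.22, limma adjusted p = 0.76).

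In the small subunit, Rps9, above the nonspecific ceiling on 2 of 3 control ELUTED arrays, had the most negative control ratio by value, with -3.58, -1.47 and -3.18 in control mice, and -1.26, -1.22 and -0.92 in transgenic mice (means -2.74 ± 1.12 and -1.13 ± 0.18, SD; limma adjusted p = 0.00082 and 0.038). Rps6, the substrate of S6 kinase downstream of mTORC1, had -2.24, -0.83 and -1.94 in control mice, and -0.36, -0.51 and -0.53 in transgenic mice. It was lower in control mice (limma adjusted p = 0.0014) and did not pass in transgenic mice (0.16). Rpsa had -1.75, -0.85 and -1.21 and -0.70, -0.73 and -0.41, and was lower in both (limma adjusted p = 0.0014 and 0.033). In all 3 genes the genotypes did not overlap, and control mouse 2 was the control mouse closest to the transgenic mice.

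The small subunit also held the 2 members that did not pass in control mice. Rps15a had tail ratios of -0.71, -0.39 and -0.11 in control mice, and -0.52, -0.69 and -0.07 in transgenic mice (limma adjusted p = 0.063 and 0.082). It exceeded the nonspecific ceiling on 2 of 3 ELUTED arrays of each genotype, so that its ratio is not an exact value. Rps19, the gene most often mutated in Diamond-Blackfan anaemia, had 0.08, -0.88 and -1.07 in control mice, and 0.02, -0.80 and -0.73 in transgenic mice (limma adjusted p = 0.053 and 0.14). In both genes the genotypes overlapped, and mouse 1 of each genotype was above 0 in Rps19. Rps2, which lines the mRNA entry channel, was lower in control mice at -0.50, -0.34 and -0.69 (limma adjusted p = 0.0079) and stood at -0.33, -0.34 and -0.38 in transgenic mice (limma adjusted p = 0.06). Of 9 tested genes from a list of Diamond-Blackfan genes that does not hold every known one (Rps7, Rps10, Rps19, Rps24, Rps26, Rpl11, Rpl15, Rpl26 and Rpl35a), 8 were lower in control mice, and 4 in transgenic mice (all genes: 39.9% and 20.5%).

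Rps27l was 1 of 2 members, with Rps15a, whose transgenic mean was below the control mean. It had tail ratios of -1.15, -1.12 and -1.32 in control mice, and -1.61, -1.17 and -1.22 in transgenic mice, lower in both by limma (adjusted p = 0.00053 and 0.0028) and with a transgenic mean of -1.33 below the control mean of -1.20. Its ELUTED values were 6.82, 6.56 and 6.41 in control mice, and 6.94, 6.58 and 6.92 in transgenic mice, and the genotypes overlapped. Rps27l exceeded the nonspecific ceiling on 2 of 3 control ELUTED arrays, and Rps15a on 2 of 3 ELUTED arrays of each genotype. The ratios of both, and the sign of their genotype differences, are therefore not exact.

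Members with and without a pyrimidine run at an annotated start overlapped in their tail ratios. The 27 members with a run had a median control ratio of -1.59, from -3.07 to -0.40, and the 26 matched members without one had -1.89, from -2.89 to -0.51. In transgenic mice the medians were -0.69 and -0.70. These are descriptions of the members, with no test.

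Different probe sets of a gene did not always agree. Of 118 tested probe sets 117 had a negative control mean, and 109 were lower and 1 was higher by limma. The 1 higher was a dim probe set of Rpl24, at 0.64 (adjusted p = 0.012), while the brighter probe set of the gene was at -2.25. In 32 genes with more than 1 tested probe set the median range between them was 0.77, and the largest, in Rpl39, was 2.97. Probe sets that were designed on, or can read, several transcripts represented 56 members, with a median control ratio of -1.77, and the other 11 members had -1.27. Ribosomal protein genes have many processed pseudogene copies, so which copies such probes read is uncertain. With only probe sets without that mark, 18 of 23 members were lower in control mice, and 15 of 23 in transgenic mice. With all probe sets, 39.9% and 20.5% of all genes were lower.

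Cytosolic ribosomal protein mRNAs had the most negative control median of the lists whose medians follow, but not the most negative transgenic one. In the tail ratio 39.9% of all genes were lower and 20.5% higher in control mice, and 20.5% lower and 6.5% higher in transgenic mice. Of 73 mitochondrial ribosomal protein genes 63 were lower in control mice, and 45 in transgenic mice, with medians of -1.24 and -0.70, from Mrps33 (-3.01) and Mrps14 (-2.92) to Mrpl54 (-0.05) and Mrpl47 (0.03) in control mice. Their transgenic median was thus close to that of the cytosolic members (-0.69), while the cytosolic control median was more negative (-1.65). Of 17 other TOP mRNAs 14 were lower in control mice, and 3 in transgenic mice, with medians of -1.23 and -0.33, so that the transgenic count was near the share of all genes. Elongation factor subunit Eef1b2 (-2.51) and Btf3 (-2.47), a nascent chain binding protein, lay at the low end, and the poly(A)-binding protein Pabpc1 (0.14) and Eif3f (0.21) at the high end. Fau and Rpl36al, ribosomal protein genes that the symbol rule does not take, had control means of -1.70 and -2.68.

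Of 33 ribosome assembly factors 23 were lower in control mice, and 11 in transgenic mice (medians -0.61 and -0.35), with Nhp2 (-3.12) and Nop10 (-2.39) at the low and Gar1 (0.09) and Fbl (0.15) at the high end in control mice. Of 32 translation factors 25 were lower and 2 higher in control mice and 9 and 0 in transgenic mice (medians -0.95 and -0.40). Of 12 genes of TOP regulators and the mTORC1 pathway 4 were lower and 3 higher in control mice and 1 and 3 in transgenic mice (medians 0.11 and -0.01), shares in control mice near those of all genes. Rheb, the activator of mTORC1, stood at -2.31 and the poly(A)-binding Larp4 at -1.26, against 0.66 for Mtor and 1.19 for Tsc1. The differences between lists were not tested.

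**Figure D4:**
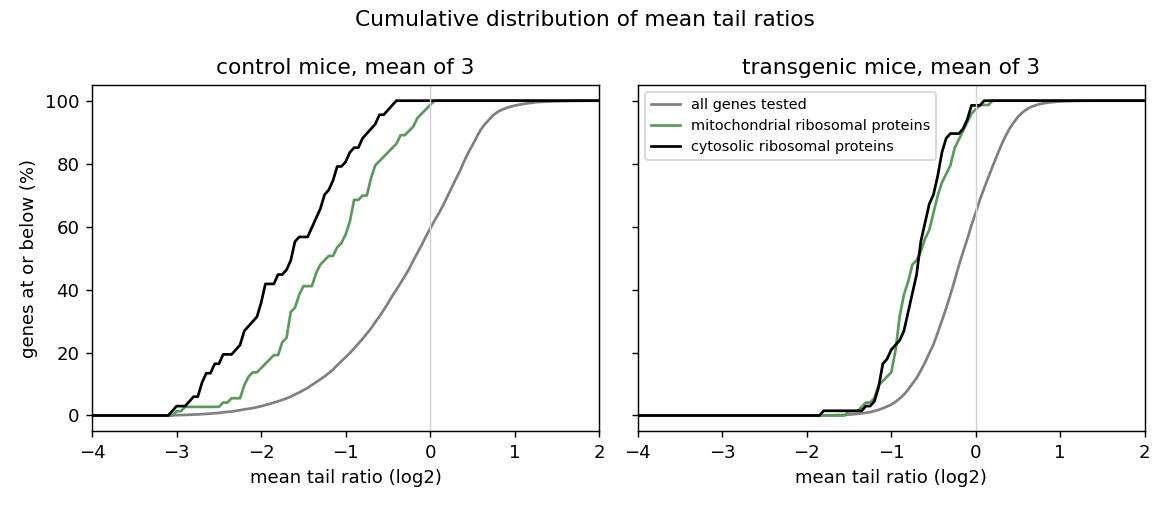
Cumulative share of genes (y axis, %) at or below a given mean tail ratio (x axis, log2) in control mice (left) and transgenic mice (right), for 67 cytosolic ribosomal protein genes (black), 73 mitochondrial ribosomal protein genes (green) and all 11974 genes tested (grey). The medians of the cytosolic genes lay at -1.65 and -0.69, and those of all genes at -0.18 and -0.17.

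Between genotypes the long-tail fraction held more ribosomal protein mRNA in transgenic mice by value, and no member passed the test with all mice. In ELUTED all 67 members had a higher mean in transgenic mice, with a median difference of 1.06 (2.09-fold) against 0.08 over all genes. In 58 members the 3 transgenic mice were all above the 3 control mice, where 18.2% of all genes were, and in 0 members they were all below (all genes: 7.64%). The members whose genotypes overlapped were Rpl7a, Rpl13, Rpl14, Rpl36a, Rpl41, Rps15a, Rps18, Rps19 and Rps27l. By limma 0 members passed (0.0% of all genes), with a lowest adjusted p of 0.28. Without control mouse 2, whose ELUTED values lay nearest those of the transgenic mice, 41 members passed, all higher (all genes: 9.5% higher and 0.71% lower). Leaving out the control mouse nearest the other genotype widens the difference by itself. With any other single mouse left out, 0 members passed.

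The tail ratio differed in the same way. The median difference of the ratio, transgenic minus control, was 0.95 over members and 0.02 over all genes, and 65 of 67 members were above 0. In 53 members the genotypes did not overlap, all with the transgenic mice above, against 11.9% of all genes with them above and 7.36% with them below. By limma 0 members passed with all mice (0.0% of all genes, lowest adjusted p among members 0.37). Without control mouse 2, 44 passed, all higher (all genes: 9.18% higher and 1.25% lower), and without any other single mouse 0 passed. The median difference ran from 0.79 to 1.31 when single mice were left out, and was 0.52 when the ratios of each mouse were first brought to 1 spread over all genes.

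The largest differences of the ratio by value were those of Rpl26, Rpl39, Rps20 and Rpl12. Rpl26, at the tunnel mouth and known for binding p53 mRNA, had ratios of -3.26, -1.45 and -3.42 in control mice, and -0.62, -0.76 and -0.96 in transgenic mice, a difference of 1.93 ± 0.47 (SE; limma adjusted p = 0.37). Rps20, in the head of the small subunit, had -3.04, -1.52 and -3.56 and -0.91, -0.95 and -0.62, a difference of 1.88 ± 0.46. Rpl39 and Rpl12 differed by 1.91 ± 0.52 and 1.87 ± 0.41. In these 4 genes the genotypes did not overlap, and control mouse 2 lay nearest the transgenic mice. The smallest differences were those of Rps27l (-0.13), Rps15a (-0.02), Rpl7a (0.10) and Rps19 (0.12), each with an SE of 0.19 to 0.35. Each changed sign under at least 1 other normalization or without 1 mouse. Rps27l and Rps15a did not exceed the nonspecific ceiling on every control ELUTED array, so their differences are not exact values.

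In ELUTED and in the tail ratio, control mice differed among themselves more than transgenic mice did. The reverse held for the medians over members in the other preparations. These ran from 10.89 to 11.19 in transgenic and 10.72 to 10.78 in control mice in INPUT, and from 10.80 to 11.13 and 10.75 to 10.94 in WASH. Mouse 3 had the most negative tail ratio of the control mice in 46 members and mouse 1 in 21, and mouse 2 had the least negative in 55. Over all tested probe sets the SD of the tail ratio was 1.19, 0.59 and 0.86 in control mice, and 0.61, 0.62 and 0.39 in transgenic mice. The SD of the ELUTED arrays themselves was 1.70, 1.81 and 1.77 in control mice, and 1.85, 1.82 and 1.91 in transgenic mice. The nonspecific ceiling stood at 7.30 on the ELUTED array of control mouse 1 and between 5.53 and 6.29 on the other ELUTED arrays, and 12 of 67 members did not exceed it on all 3 control ELUTED arrays, 3 of them also not on all 3 transgenic ones. For those 12 (Rpl7, Rpl12, Rpl14, Rpl22, Rpl22l1, Rpl36a, Rpl39, Rplp2, Rps9, Rps13, Rps15a and Rps27l) a control ELUTED level, and with it the ratio, is not an exact value. The signal of Gapdh at its 3′ end minus its 5′ end was 0.15 on that array of control mouse 1 and between -0.18 and -0.12 on the other ELUTED arrays. The same difference for beta-actin was -1.08, -0.66 and -0.96 on the ELUTED arrays of control mice 1, 2 and 3, and -0.74, -0.75 and -0.69 on those of transgenic mice, so that control mice 1 and 3, which had the most negative tail ratio medians, were also the lowest here. The part of these array properties in the genotype difference was not tested.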

How the data were processed

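The deposited values are log2 signals. The submitters' processing notes name RMA, which subtracts background and equalises array distributions, and which therefore hides any change common to nearly the whole fraction. Its version and its grouping of arrays were not given in the sources used here. Per the labels' protocols, 21 amplification cycles started from 5 ng of RNA, and labelling took 8 µg of cDNA. The design text names another array type than the one whose probe set names and annotation fit the table, and the latter was used.

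Control probe sets (104) were left out, and probe sets with a mean over 18 arrays above the 40th percentile (5.95) were tested with limma 3.58.1 in R 4.3.3, two-sided, with Benjamini-Hochberg adjustment over all 27022 and an adjusted p under 0.05 as the threshold. The fit was tested on simulated data. Each gene was represented by its tested probe set of highest mean. Each preparation was compared between genotypes. Differences between preparations were taken within a mouse and tested against 0, the 6 mice sharing 1 spread. This pairing comes from the labels: the WASH and ELUTED arrays of a mouse deviated from their group means with correlations of -0.07, 0.16 and -0.02 in the control group, and 0.72, 0.33 and 0.43 in transgenic mice. No arrays were identical (correlations 0.645 to 0.995), and 3 mice a genotype limit the precision. Nothing says more of how the mice were drawn than that each is a separate animal.

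Named were the 5 most and 5 least negative control tail ratios, the 4 highest and 4 lowest genotype differences of the ratio and in INPUT, paralogues ending in l or l1, members with known roles, members with probe sets of opposite sign and members of a small class. The members and lists were chosen with earlier results of these data known. Arrays give no read depth. All 69 members matched RefSeq by symbol. Gene starts were taken from the RefSeq promoter table (GRCm38.p6), in which 53 members had an entry.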

Additional observations from a re-analysis of the deposited data

How the results depend on the processing

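The number in the titles did not pair mice across genotypes, and a replicate block by that number left 0 members passing in INPUT, WASH, ELUTED and the difference of the tail ratio. Without the replicate block within a mouse, ELUTED minus INPUT in transgenic mice had 12 lower members in place of 1. That count was 0 with the 60th percentile filter, no filter, all probe sets averaged, median centring, a second quantile normalization and a trended variance, 2 with unshared probe sets only and 53 with each genotype fitted alone, an alternative chosen after seeing the data. The transgenic tail ratio passed in 12 (second quantile normalization), 18 (trended variance), 15 of 23 (unshared probe sets) and 60 (fitted alone) members, and its median was -0.54 with the second quantile normalization and -0.78 with median centring. With unshared probe sets only, 18 of 23 members passed in the control tail ratio, 15 in ELUTED minus INPUT of control mice, and 10 (control) and 9 (transgenic) in WASH minus INPUT, the median of ELUTED minus INPUT was -0.46 in transgenic mice, and that of the ratio difference 0.54. The latter was 0.52 with ratios rescaled to 1 spread. The WASH minus INPUT median of transgenic mice turned to 0.047 (probe sets averaged), 0.025 (median centring) and 0.013 (unshared probe sets). Median centring moved the all-gene median of the control ratio from -0.18 to -0.31, and a second quantile normalization moved it to -0.00 and the calls from 4772 lower and 2457 higher to 3576 and 2960. The cause of these shifts was not tested.

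Single-gene signs also turned: Rpl41 in INPUT (0.033, probe sets averaged), and for the difference of the ratio Rps15a (0.0081, centring; 0.10, quantile), Rps27l (0.0085, quantile), Rpl7a (-0.059, quantile; -0.13, rescaled), Rps19 (-0.11, rescaled) and Rpl39 (-0.20, unshared). Leaving out 1 mouse at a time gave ranges of passing members of 0 to 0 (INPUT), 0 to 1 (WASH), 0 to 41 (ELUTED), 0 to 44 (difference of the ratio), 60 to 66 and 0 to 51 (tail ratio, control and transgenic), 13 to 24 and 11 to 27 (WASH minus INPUT) and 37 to 59 and 0 to 38 (ELUTED minus INPUT). The medians ran from 0.12 to 0.25, 0.01 to 0.12, 0.86 to 1.30, 0.79 to 1.31, -1.94 to -1.42, -0.69 to -0.66, 0.04 to 0.17, -0.14 to 0.10, -1.75 to -1.33 and -0.80 to -0.63 in the same order. Over the same omissions the difference of the ratio ran from -0.21 to 0.0082 for Rps27l, -0.20 to 0.12 for Rps15a, -0.13 to 0.27 for Rpl7a and -0.14 to 0.48 for Rps19, and the INPUT difference from -0.015 to 0.086 for Rpl37, so that the sign of each turned. Over all alternatives run, 253 counts and medians over members stayed within 1.5 times the main count or within 1 SD of the main median. A further 37 moved beyond these bounds, and 4 medians turned sign. The SD was that between the medians of single mice, and a count of 0 that stayed 0 was taken as unmoved. A control level at the nonspecific background bounds 12 members.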
